A study of Homo sapiens with 8 samples.

Results

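Liver cells grown for 5 days in a microporous scaffold without flow (static 3D, 3 arrays) were compared with flat monolayer cultures of the same age (2D, 3 arrays). These are the 6 arrays whose group label is 3D or 2D, out of 8 in the series, and every gene with a usable probe was described, whether or not it has a known liver function. Static 3D cultures were started on a MatriGrid, a polycarbonate support with micropores, kept in a well of a culture plate. The number of viable cells seeded in 2D was 0.25 of that in static 3D, so that the effects of culture format and of the number of cells seeded cannot be told apart. No drug, genotype or other treatment is named for either group. The sources conflict on the cells themselves: the sample characteristics give HepG2, an established line from a human liver tumour, whereas the series text speaks of hepatocytes from several donors and the source name is hepatocyte. No label ties an array to a donor or pairs a 3D with a 2D array, and the numbers 1 to 3 used here only name arrays. Whether the arrays of a group come from separate donors or cultures is likewise not labelled, so a p-value measures only the spread between these samples. The 2 arrays of perfused scaffolds were not compared, but entered the normalisation and the shared estimate of spread.

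As background, hepatocytes make most proteins of blood plasma and carry out urea synthesis, amino acid breakdown and drug oxidation, and they tend to lose these functions in flat culture. Cells that receive little oxygen stabilise the transcription factors HIF-1 and HIF-2, which bind the DNA core ACGTG or GCGTG. These factors switch on genes of glucose breakdown, vessel growth and iron handling. Both programmes are often described when liver cells are cultured in aggregates or scaffolds.

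Each array read 47323 probes by fluorescence, and 29.7% to 34.3% of probes per array were detected above the negative controls (detection p under 0.05). Levels are given as log2 of the background-corrected, quantile-normalised intensity, and differences as static 3D minus 2D on that scale, where 1 is a 2-fold change. A level may be compared between arrays for 1 probe, not between probes. The 6 arrays did not sort by group. 2D replicate 1 and static 3D replicate 1 resembled each other (r = 0.921 across genes), and 2D replicate 1 correlated at 0.866 to 0.901 with the other 4 arrays, which correlated with each other at 0.947 to 0.976. Each 2D array correlated best, among the static 3D arrays, with the one given the same number here (0.921, 0.976 and 0.960); the numbers follow accession order, and no label pairs the arrays. Markers of Kupffer cells, the macrophages of the liver, were detected for 6 of 18 measured genes on static 3D replicate 1 and 9 on 2D replicate 1, against 16 to 18 on each of the other 4 arrays. A culture of 1 tumour line holds no macrophages, so the Kupffer cell markers on those 4 arrays go against the HepG2 label. Genes of dividing cells ran the other way, with all 27 detected on both replicate 1 arrays and 12 to 20 elsewhere, and a list mean of 9.67, 7.26 and 7.77 on the static 3D arrays, against 9.997, 7.77 and 7.22 on the 2D arrays. Static 3D replicate 1 also lies on a different chip from the other 5 arrays. Because these 2 arrays stand apart, results below are given over all arrays and the main ones also without both of them. In bulk RNA, fewer cells of a type and less RNA per cell cannot be told apart. Albumin (ALB, chromosome 4), the main plasma protein, lay at 15.70, 15.70 and 15.62 in static 3D, against 15.78, 15.64 and 15.64 in 2D, near the ceiling of the scale where quantile normalisation largely fixes a level.

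Across the whole array, the genes with the largest and most stable differences were higher in static 3D. Many of them encode proteins that hepatocytes secrete or use in metabolism, or are known to respond to low oxygen, a grouping made after their values were seen. No single gene passed the test after correction. Of 11031 genes tested with limma, 0 (0%) had a Benjamini-Hochberg adjusted p under 0.05, and the smallest adjusted p was 0.415, for the glycolysis regulator PFKFB4. At an unadjusted p under 0.05 there were 291 genes higher in static 3D (2.64%) and 227 lower (2.06%), in all 518 or 4.7%. That is close to the share of p-values under that threshold when nothing differs and the arrays vary independently. Given the likeness between single 2D and static 3D arrays, this condition may not hold, and it was not tested. The median absolute difference over all genes was 0.23 and the median standard error 0.29. All directions named below are therefore descriptions of these 6 arrays.

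Over all genes, 5532 (50.1%) had the higher mean in static 3D and 5499 (49.9%) the lower. The arrays of the groups did not overlap for 1118 genes (10.1%). That is about the share that 3 against 3 arrays give when nothing differs and the arrays vary independently, a condition that was not tested. Of these, 547 were higher (4.96% of all genes) and 571 lower (5.18%). That near balance depends on the scaling: with median scaling in place of quantile normalisation the counts were 246 higher and 811 lower, so that 23.3% of the genes without overlap were higher, against 48.9% with quantile normalisation. At least 2-fold were 219 genes higher (1.99%) and 64 lower (0.58%). This lean of the large differences also depends on the scaling, since with median scaling they were 156 higher and 137 lower. With a 2-fold gap between the nearest static 3D and 2D arrays there were 11 genes higher (0.0997%) and 0 lower (0%).

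How far each difference depended on single arrays was followed over 9 array sets: all arrays, the 6 sets without 1 array, the set without both replicate 1 arrays, and chip as a block, which leaves only the chip that holds the other 5 arrays. Chip as a block gives the same differences as leaving out static 3D replicate 1, so it adds no separate check. The direction was the same in all 9 sets for 5259 genes (47.7%) and turned in at least 1 set for 5772 (52.3%). Among genes at least 2-fold apart over all arrays, the direction turned for 7 of 219 higher and 5 of 64 lower. The size was less stable than the direction. Of the 219 higher genes, 102 (46.6%) remained 2-fold higher without 2D replicate 1, whereas 212 (96.8%) did so without 2D replicate 2 and 176 (80.4%) without static 3D replicate 1. 2D replicate 1 was the lowest of the 6 arrays for 171 of the 219. Of the 64 lower genes, 31 (48.4%) remained 2-fold lower without 2D replicate 1 and 35 (54.7%) without static 3D replicate 1. In all 9 sets, 59 genes (0.535%) were at least 2-fold higher and 4 (0.0363%) at least 2-fold lower, and both sets are called stable here. The 59 include 50 for which 2D replicate 1 was the lowest array, and that array therefore enlarges their differences.

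**Figure D1:**
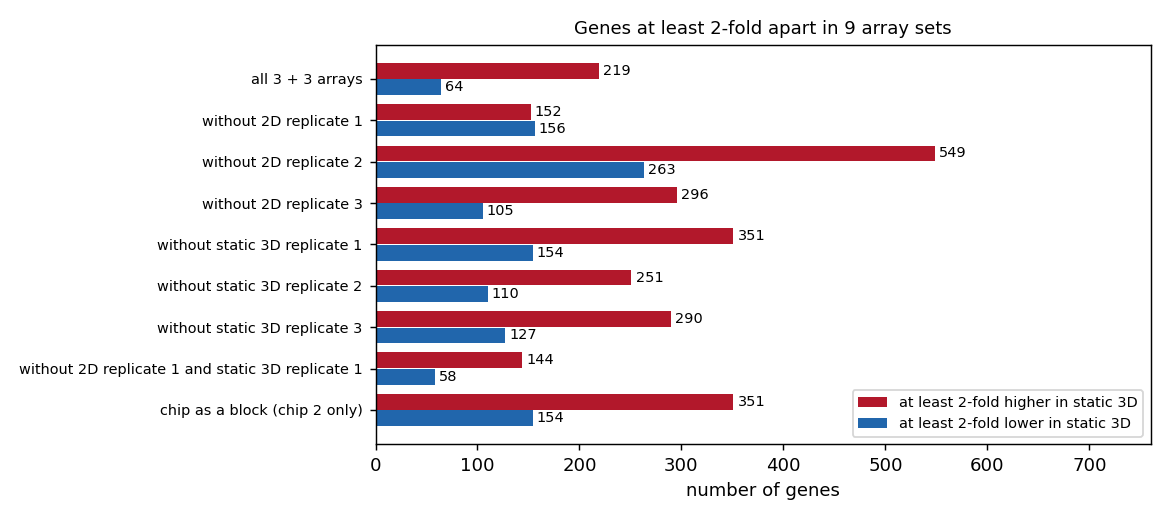
Number of genes (horizontal axis) with a mean difference of at least 2-fold between static 3D and 2D in each of 9 array sets, red for higher and blue for lower in static 3D. The count of higher genes exceeded that of lower genes in 8 of the 9 sets, from 219 and 64 over all arrays to 144 and 58 without replicate 1 of both groups. Without 2D replicate 1 alone it was 152 higher and 156 lower. Chip as a block repeats the differences of the set without static 3D replicate 1 and is no separate set.

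**Figure D2:**
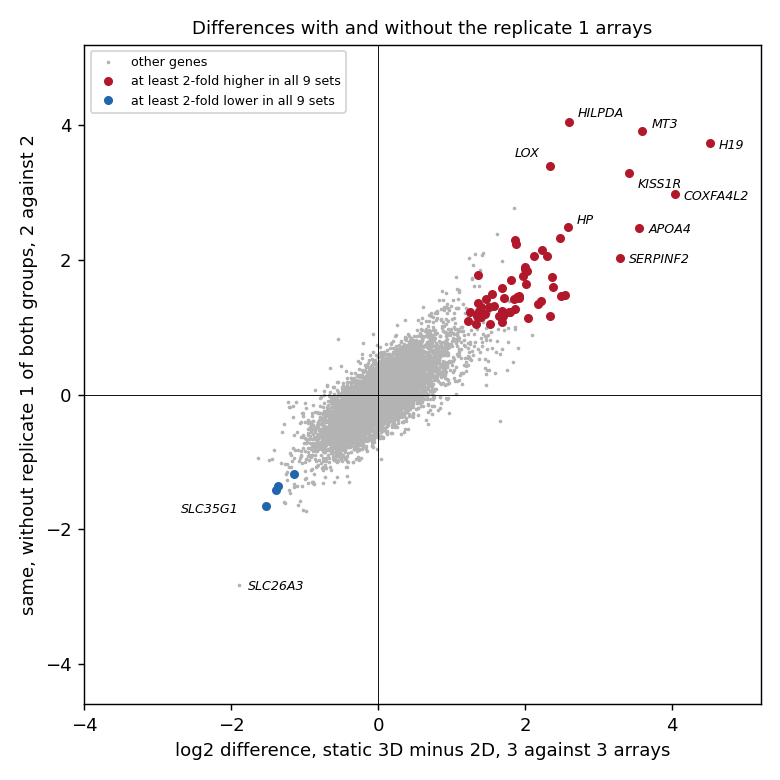
Each of 11019 genes by its log2 difference over 3 static 3D and 3 2D arrays (horizontal axis) and over the arrays other than replicate 1 of each group (vertical axis), static 3D minus 2D. Red marks the 59 genes at least 2-fold higher and blue the 4 at least 2-fold lower in all 9 array sets; H19 lies farthest right at 4.51 and HILPDA highest at 4.04.

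The 11 genes whose groups were a full 2-fold apart at their nearest arrays include 5 genes known to be induced by low oxygen, PFKFB4, ENO2, VEGFA, STC1 and NDRG1, together with a receptor, a noncoding RNA, an apolipoprotein, a metal-binding protein, a cytokine and FAM13A. Gap below means the difference between the nearest static 3D and 2D arrays. PFKFB4, which makes the sugar phosphate that drives glycolysis, lay at 10.59, 9.98 and 10.22 in static 3D, against 8.33, 8.27 and 8.20 in 2D. The 2D arrays lay close together, and the difference of 2.00 (SE 0.26, 95% interval 1.42 to 2.58) kept between 1.83 and 2.14 when any 1 array was left out. ENO2, an enolase of the glycolytic chain, lay at 9.05, 9.52 and 8.85 in static 3D, against 6.69, 7.70 and 6.37 in 2D, a difference of 2.22 (SE 0.42) with a gap of 1.15; 1 of the 2D arrays detected it. VEGFA, the signal for vessel growth, lay at 9.73, 10.002 and 9.87 in static 3D, against 7.48, 8.65 and 8.35 in 2D. The static 3D arrays of VEGFA were close together and the 2D arrays spread by more than 1, yet all of them lay lower, and its second probe showed the same order of groups with a difference of 1.83. STC1, a secreted glycoprotein hormone, lay at 8.80, 9.03 and 9.43 in static 3D, against 6.93, 7.73 and 7.57 in 2D, a difference of 1.68 (SE 0.29). NDRG1, a stress-responsive gene, lay at 14.53, 13.95 and 14.09 in static 3D, against 11.96, 12.92 and 12.62 in 2D. Leaving out both replicate 1 arrays gave 1.87 for PFKFB4, 2.15 for ENO2, 1.44 for VEGFA, 1.58 for STC1 and 1.25 for NDRG1, all still above 2-fold.

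KISS1R, the receptor of the peptide hormone kisspeptin, had the widest gap as measured. It lay at 9.44, 10.14 and 8.89 in static 3D, against 5.78, 6.11 and 6.36 in 2D, and it was detected on every static 3D array and on no 2D array. Its means were 9.49 ± 0.62 in static 3D and 6.08 ± 0.29 in 2D (SD, n = 3 each), so it was at least 6.39-fold higher, where a 2D array counts at the faintest level that passed detection on it, or at its own level if that was brighter. Its gap of 2.54 as measured was 2.00 on that basis, behind that of H19 at 2.50. H19, an imprinted noncoding RNA abundant in fetal liver, had the largest difference of the 11019 genes plotted, 4.51 (SE 0.99). Its levels were 14.36, 10.84 and 11.61 in static 3D, against 8.31, 8.34 and 6.64 in 2D. The highest array was static 3D replicate 1, but without both replicate 1 arrays the difference was still 3.74. APOA4, a lipid-carrying plasma protein, lay at 14.21, 12.35 and 12.15 in static 3D, against 8.51, 10.40 and 9.14 in 2D, again with static 3D replicate 1 highest, and its difference was 3.55 over all arrays and 2.48 without both replicate 1 arrays. MT3, a metallothionein known from brain, lay at 8.66, 10.53 and 10.35 in static 3D, against 5.70, 7.22 and 5.84 in 2D. Static 3D replicate 1 was here the lowest of its group, and the difference was 3.59 (SE 0.77). Only 1 of the 2D arrays detected MT3, and with the other 2 at their faintest detected level the difference was 2.89. LTB, a membrane-bound cytokine of the tumour necrosis factor family, had tight groups, with 10.60, 10.81 and 10.48 in static 3D, against 8.95, 9.09 and 9.21 in 2D. Its difference of 1.55 (SE 0.25) moved only between 1.46 and 1.62 when 1 array was left out, and its second probe, also without overlap, differed by 1.94. FAM13A lay at 10.51, 9.38 and 9.53 in static 3D, against 7.58, 8.38 and 8.07 in 2D, and both of its other probes were also higher without overlap, by 0.93 and 1.46.

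Close behind these 11 genes followed TUBB2B, a beta tubulin, at 8.53, 8.42 and 8.96 in static 3D, against 6.61, 7.33 and 7.45 in 2D. APOC3, an apolipoprotein that slows the clearance of triglyceride, lay at 14.55, 14.19 and 15.13 in static 3D, against 11.69, 13.21 and 13.23 in 2D. SPAG4, a protein of the nuclear envelope, lay at 9.34, 9.72 and 9.35 in static 3D, against 6.61, 8.42 and 7.82 in 2D, and DUOXA2, which helps mature a hydrogen peroxide-producing oxidase, at 8.86, 9.60 and 8.20 in static 3D, against 6.46, 7.30 and 6.81 in 2D. In TUBB2B, APOC3, SPAG4 and DUOXA2, 2D replicate 1 was the lowest array. Without both replicate 1 arrays their differences were 1.30, 1.44, 1.42 and 1.84. BHMT, a liver enzyme that remakes methionine from homocysteine, was among the 6 higher genes with the smallest p. It lay at 10.98, 10.23 and 10.81 in static 3D, against 8.90, 9.36 and 9.04 in 2D, a difference of 1.57 (SE 0.26, 95% interval 0.98 to 2.17).

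Of the HIF core, the form GCGTG was not looked for. The form ACGTG was looked for, as ACGTG or on the other strand CACGT, in the 250 bases before the annotated start of each gene (GRCh38.p14, sequences from RefSeq). It was present in 2067 of 8871 tested genes with an entry (23.3%), in 9 of 42 stable higher genes (21.4%), in 3 of 6 genes with a 2-fold gap, and in 15 of 27 genes of the hypoxia list (55.6%). The stable higher genes thus held the motif at about the share of all genes. A match describes letters, not a binding site, and no match says only that the letters are absent from this window. The windows of 4 genes with a 2-fold gap are shown, with the motif in capitals. They were picked by hand and include all 3 genes of that set with a match, so they overstate its share. PFKFB4 (chr3:48556804-48557053, minus strand) has no match to ACGTG, though its window holds the form GCGTG, which was not counted. ENO2 (chr12:6914330-6914579, plus strand) has a match 118 bases before its start, APOA4 (chr11:116823305-116823554, minus strand) 154 bases before, and FAM13A (chr4:89057186-89057435, minus strand) a palindromic match 48 bases before.
PFKFB4: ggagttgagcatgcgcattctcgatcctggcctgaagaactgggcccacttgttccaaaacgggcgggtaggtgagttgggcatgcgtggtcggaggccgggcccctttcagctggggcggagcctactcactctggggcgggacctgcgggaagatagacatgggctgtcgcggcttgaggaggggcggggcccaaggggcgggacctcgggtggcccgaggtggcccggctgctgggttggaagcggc
ENO2: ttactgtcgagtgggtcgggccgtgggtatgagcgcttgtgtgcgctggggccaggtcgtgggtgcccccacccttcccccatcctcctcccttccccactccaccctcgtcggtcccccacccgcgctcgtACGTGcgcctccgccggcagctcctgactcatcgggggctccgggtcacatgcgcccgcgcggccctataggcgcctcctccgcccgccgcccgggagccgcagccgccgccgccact
APOA4: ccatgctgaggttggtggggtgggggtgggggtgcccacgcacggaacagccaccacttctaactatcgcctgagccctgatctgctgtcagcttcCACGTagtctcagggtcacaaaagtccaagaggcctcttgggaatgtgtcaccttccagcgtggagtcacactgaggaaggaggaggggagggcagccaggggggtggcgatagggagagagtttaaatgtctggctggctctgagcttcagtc
FAM13A: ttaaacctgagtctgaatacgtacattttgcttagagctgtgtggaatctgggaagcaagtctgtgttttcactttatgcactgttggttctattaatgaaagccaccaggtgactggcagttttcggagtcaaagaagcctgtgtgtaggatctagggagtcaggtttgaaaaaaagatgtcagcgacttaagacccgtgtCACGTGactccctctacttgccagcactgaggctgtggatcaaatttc

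**Figure D3:**
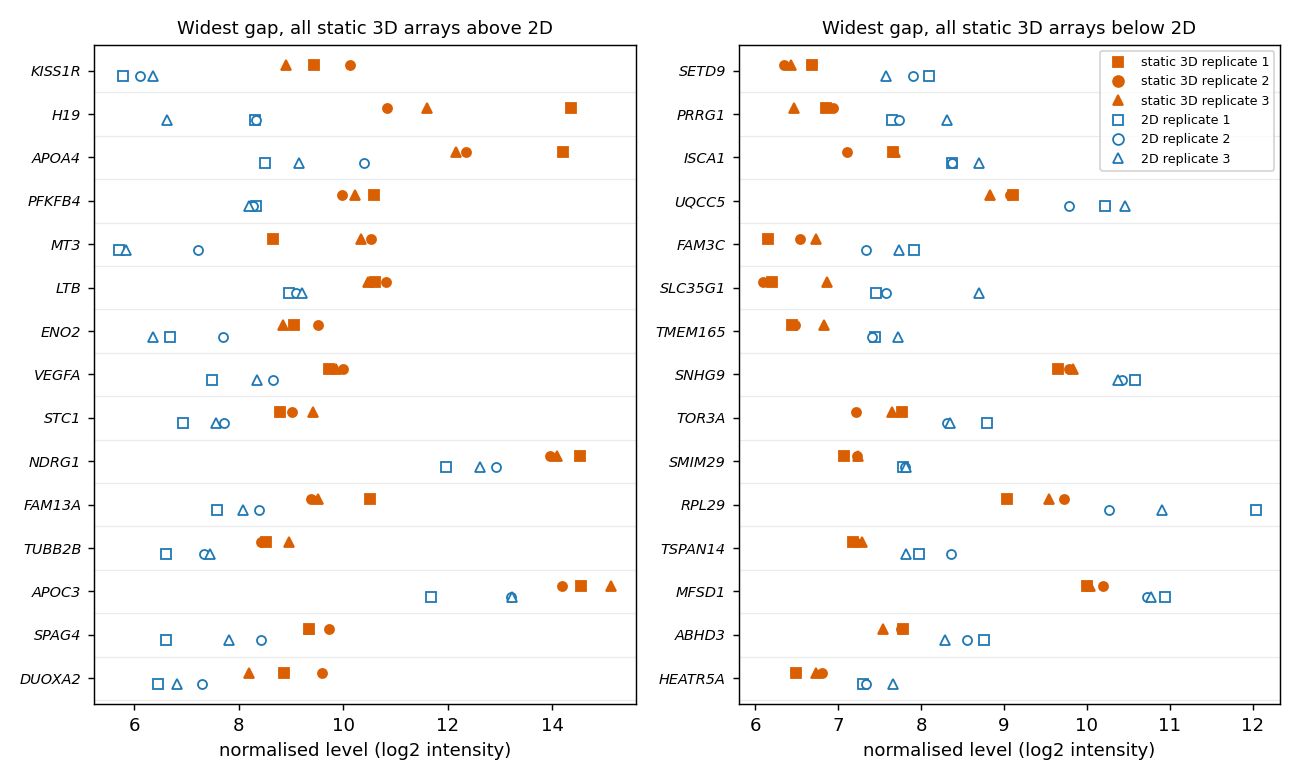
Level of 30 genes on each of the 6 arrays (horizontal axis, log2 intensity), orange filled symbols for static 3D and open blue symbols for 2D, with square, circle and triangle for replicates 1, 2 and 3. The 15 genes on the left have the widest gaps as measured with static 3D above 2D, from 2.54 in KISS1R to 0.90 in DUOXA2. The 15 on the right have the widest with static 3D below 2D, from 0.90 in SETD9 to 0.49 in HEATR5A. All were chosen among genes detected on every array of the higher group. Arrays that did not detect a gene are drawn at their own level, and KISS1R (2D), SETD9 and HEATR5A (static 3D) were detected on no array of their lower group.

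The other stable higher genes are given by role, in groups made after their values were seen. The genes named from here on that have neither a gap among the 15 widest, nor a p among the 6 smallest, nor a difference among the 6 largest were named after their values were seen, most of them as members of the stable set or of a list. Among secreted plasma proteins, SERPINF2, the inhibitor of plasmin, lay at 12.02, 10.49 and 11.26 in static 3D, against 6.23, 9.60 and 8.07 in 2D. The spread within 2D was wide, from the lowest at replicate 1 to the highest at replicate 2, and the difference of 3.29 became 2.03 without both replicate 1 arrays. Transferrin (TF), the iron carrier, lay at 15.11, 14.48 and 15.60 in static 3D, against 12.52, 14.21 and 13.53 in 2D, and kininogen (KNG1), the source of bradykinin, at 11.85, 11.95 and 12.86 in static 3D, against 7.31, 11.47 and 10.42 in 2D. The same order of the 2D arrays, with replicate 1 far below replicate 2, held for plasminogen (PLG), at 11.28, 10.97 and 11.81 in static 3D, against 7.37, 10.62 and 8.95 in 2D, and for complement factor B (CFB), at 13.96, 13.96 and 14.20 in static 3D, against 11.07, 13.33 and 12.67 in 2D. For complement C1R the arrays lay at 10.32, 11.75 and 12.21 in static 3D, against 8.06, 9.79 and 10.06 in 2D, and for complement C6, part of the membrane attack complex, at 9.35, 10.66 and 11.30 in static 3D, against 6.60, 9.79 and 8.04 in 2D, where 2D replicate 2 reached into the static 3D range. The serpin SERPINA11 was higher by 2.47, antithrombin (SERPINC1) by 1.32, the heme carrier HPX by 1.52, and the peptidoglycan-cleaving enzyme PGLYRP2 by 2.34. ANGPTL8, a regulator of lipoprotein lipase, was higher by 1.86 and VWCE, a secreted protein with von Willebrand domains, by 2.04.

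Haptoglobin (HP), which binds free haemoglobin, lay at 12.29, 14.13 and 14.30 in static 3D, against 9.52, 12.41 and 11.05 in 2D, with 2D replicate 2 just above the lowest static 3D array. Its neighbour HPR is a near-identical copy, was higher by 1.81, and the arrays cannot assign the signal to HP or HPR with certainty. Lipoprotein(a) (LPA) and FGL1, a liver-made fibrinogen-like protein, were higher by 1.47 and 1.67 on their brightest probes. Their other probes disagreed, at 0.12 and 0.28 for LPA and between 0.11 and 1.56 for FGL1. Close copies also exist for MT3, ADH1A, CYP2C8, PLG, RPL29 and RN7SK, and which copy their probes read was not tested.

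Enzymes and transporters of liver metabolism made up a second group of stable genes. CPS1, the entry enzyme of the urea cycle, lay at 12.08, 10.69 and 11.81 in static 3D, against 8.24, 10.27 and 9.44 in 2D, and AGXT, which detoxifies glyoxylate, at 12.22, 11.04 and 11.98 in static 3D, against 8.37, 10.37 and 9.97 in 2D. In both, all static 3D arrays lay above all 2D arrays, and without both replicate 1 arrays the differences were 1.40 and 1.34. HAL, which breaks down histidine, lay at 7.98, 8.18 and 8.19 in static 3D, against 6.26, 7.38 and 6.62 in 2D. The drug-oxidising enzyme CYP2C8 lay at 12.39, 12.25 and 13.44 in static 3D, against 7.71, 12.37 and 10.36 in 2D, and the alcohol dehydrogenase ADH1A at 10.63, 11.08 and 13.48 in static 3D, against 7.03, 10.90 and 10.16 in 2D. Both overlapped between groups, because 2D replicate 2 was as high as static 3D arrays. The purine enzyme ADSS1 was higher by 1.78 on the probe used, but by 0.46 with overlap on its other probe. The bile acid transporter subunit SLC51A was higher by 1.69 with overlap, the mitochondrial carrier SLC25A47 by 1.35 and the glycerol channel AQP9 by 1.22. CREB3L3, a liver transcription factor anchored in the endoplasmic reticulum, lay at 9.76, 10.45 and 9.89 in static 3D, against 6.99, 9.67 and 7.39 in 2D. TXNIP, a glucose-induced inhibitor of thioredoxin, lay at 10.94, 11.40 and 11.96 in static 3D, against 8.15, 10.20 and 10.27 in 2D, with a difference of 1.89 (SE 0.58).

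The remaining stable higher genes fall in neither group. Aldolase C (ALDOC), a glycolytic enzyme known to respond to low oxygen, lay at 11.55, 11.45 and 12.09 in static 3D, against 9.67, 10.32 and 10.92 in 2D. MMP10, a matrix-cleaving protease, lay at 7.96, 8.94 and 9.16 in static 3D, against 7.43, 6.94 and 7.62 in 2D, and its difference was 1.36 over all arrays and larger, 1.77, without both replicate 1 arrays. RN7SK, the small nuclear RNA that holds the elongation factor P-TEFb inactive, was higher by 1.85, and by 2.29 without them. Over all arrays its groups overlapped on the probe used. The giant muscle protein gene NEB was higher by 1.91 and the antibody transporter PIGR by 1.97, and the groups of both overlapped. The transcription factor TBX15 was higher by 1.25 and the calcium-binding protein S100A14 by 1.36. For the elastic fibre protein EFEMP2 the difference was 1.38, and for the guidance molecule SEMA4B 1.46. The zinc finger gene ZNF160 was higher by 1.40 on the probe used but by 0.09 on its other probe. Of the 59 stable higher genes, 47 had groups that did not overlap, where 4.96% of all genes were higher without overlap. The rule that chose the 59 on the same arrays favours separated groups, so the count of 47 is no separate support. With undetected arrays at their faintest detected level, 57 of the 59 were still at least 2-fold higher over all arrays and 3 of the 4 stable lower genes at least 2-fold lower.

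Differences in the lower direction were smaller, and several of these genes lay near the limit of detection in static 3D. SETD9, a gene with a methyltransferase-type SET domain, had the widest gap as measured of the lower genes detected on every 2D array. It lay at 6.68, 6.35 and 6.43 in static 3D, against 8.09, 7.90 and 7.58 in 2D, and no static 3D array detected it. The means were 6.49 ± 0.17 in static 3D and 7.86 ± 0.26 in 2D (SD, n = 3 each), so that it was at least 1.98-fold lower, with the undetected arrays bounded as for KISS1R. On that basis its gap of 0.90 was 0.64, behind PRRG1 at 0.70, ISCA1 at 0.68 and UQCC5 at 0.68. UQCC5, an assembly factor of respiratory complex III, lay at 9.11, 9.08 and 8.83 in static 3D, against 10.22, 9.79 and 10.46 in 2D. It was detected on all 6 arrays, with a difference of -1.15 (SE 0.25, 95% interval -1.72 to -0.58). SLC35G1, a membrane protein of the solute carrier 35 family, lay at 6.20, 6.10 and 6.87 in static 3D, against 7.46, 7.58 and 8.69 in 2D, and MICA, a stress ligand of natural killer cells, at 7.65, 7.31 and 6.35 in static 3D, against 8.99, 7.85 and 8.65 in 2D. SLC35G1 was detected on 1 static 3D array and MICA on 2, so their levels there lie near background. PRRG1, a vitamin K-dependent membrane protein, lay at 6.85, 6.93 and 6.47 in static 3D, against 7.65, 7.74 and 8.31 in 2D, just short of 2-fold when 2D replicate 3 was left out. ISCA1, which assembles iron-sulfur clusters, lay at 7.66, 7.11 and 7.68 in static 3D, against 8.37, 8.37 and 8.70 in 2D on the probe used, a difference of -0.99, while its other probe differed by -0.42 with overlap.

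Members of the 15 widest lower gaps that were detected on all 6 arrays mostly had small differences. SNHG9, a small nucleolar RNA host gene, lay at 9.65, 9.78 and 9.83 in static 3D, against 10.58, 10.42 and 10.38 in 2D. MFSD1, a lysosomal membrane transporter, lay at 9.998, 10.20 and 10.04 in static 3D, against 10.95, 10.72 and 10.78 in 2D. Both groups were tight in both genes, and the differences were -0.71 (SE 0.21) and -0.74 (SE 0.19). SMIM29, a small membrane protein gene, lay at 7.07, 7.23 and 7.24 in static 3D, against 7.78, 7.81 and 7.82 in 2D. RPL29, a protein of the large ribosomal subunit, was the largest of these by size, at 9.04, 9.73 and 9.54 in static 3D, against 12.04, 10.27 and 10.90 in 2D. Its 2D arrays spread widely, so its difference was -1.63 over all arrays and -0.95 without both replicate 1 arrays; its second probe differed by -1.49. The torsin TOR3A was lower by 0.94, the tetraspanin TSPAN14 by 0.83 and the lipid hydrolase ABHD3 by 0.84. FAM3C, TMEM165 and HEATR5A were detected on every 2D array, as the choice of the 15 widest lower gaps required. No static 3D array detected them, and they were at least 1.72-fold, 1.57-fold and 1.47-fold lower. Of these, FAM3C is a secreted cytokine-like protein and TMEM165 an ion transporter of the Golgi. By smallest p, the complex II assembly factor SDHAF4 and the mitochondrial fission regulator MTFR2 were added, also without detection in static 3D, at least 1.43-fold and 1.38-fold lower.

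Some of the largest differences rested on few arrays. COXFA4L2, formerly NDUFA4L2, a mitochondrial protein known to be induced by low oxygen, lay at 11.87, 13.12 and 12.78 in static 3D, against 5.73, 11.86 and 8.07 in 2D. One 2D array thus reached the lowest static 3D array while another lay near background, and the difference of 4.03 had an SE of 1.30. HILPDA, a lipid droplet protein also known as a hypoxia gene, lay at 8.02, 9.93 and 10.29 in static 3D, against 8.33, 6.01 and 6.13 in 2D. Here 2D replicate 1 was the high 2D array and static 3D replicate 1 the low 3D array. Without both, the difference was 4.04 with a limma adjusted p of 0.040, from 2 arrays against 2, and HILPDA was the only gene to pass in any of 18 alternative settings. LOX, the collagen cross-linking enzyme, lay at 5.66, 9.53 and 10.06 in static 3D, against 5.42, 6.15 and 6.66 in 2D, detected on 2 static 3D arrays and no 2D array, and at least 3.04-fold higher. TAT, the tyrosine aminotransferase, lay at 7.08, 9.17 and 10.30 in static 3D, against 5.94, 8.56 and 6.44 in 2D, and the mucin MUC1 at 8.21, 10.56 and 8.73 in static 3D, against 5.997, 8.77 and 6.74 in 2D. All 5 genes were at least 2-fold higher in each of the 9 sets, yet the groups overlapped in 4 of them and lay 0.01 apart in COXFA4L2.

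Among lower genes, SLC26A3, an intestinal chloride and bicarbonate exchanger, had the largest mean difference, -1.89, with an SE of 1.61. It lay at 5.65, 8.99 and 6.75 in static 3D, against 5.67, 11.86 and 9.52 in 2D, so both replicate 1 arrays lay at background and the difference ran from -3.56 to -0.47 as single arrays were left out. HIF1A, the oxygen-regulated subunit of HIF-1, lay at 5.99, 8.04 and 6.83 in static 3D, against 8.41, 8.01 and 8.76 in 2D on its brightest probe, which 1 of the static 3D arrays detected. The other HIF1A probes differed by -0.50 and -0.23 and overlapped. ATP1B3, a sodium pump subunit, lay at 6.52, 7.24 and 8.55 in static 3D, against 9.13, 7.86 and 9.59 in 2D. CPA4, a secreted carboxypeptidase, lay at 6.36, 6.54 and 6.54 in static 3D, against 8.87, 6.64 and 8.38 in 2D and was detected on no static 3D array and on 2 of the 2D arrays, a level at least 2.13-fold lower in static 3D. ATP1B3 was detected on 2 of the static 3D arrays. With undetected arrays at their faintest detected level the differences were -1.16 for HIF1A and -1.32 for ATP1B3, against -1.44 and -1.42 as measured.

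**Figure D4:**
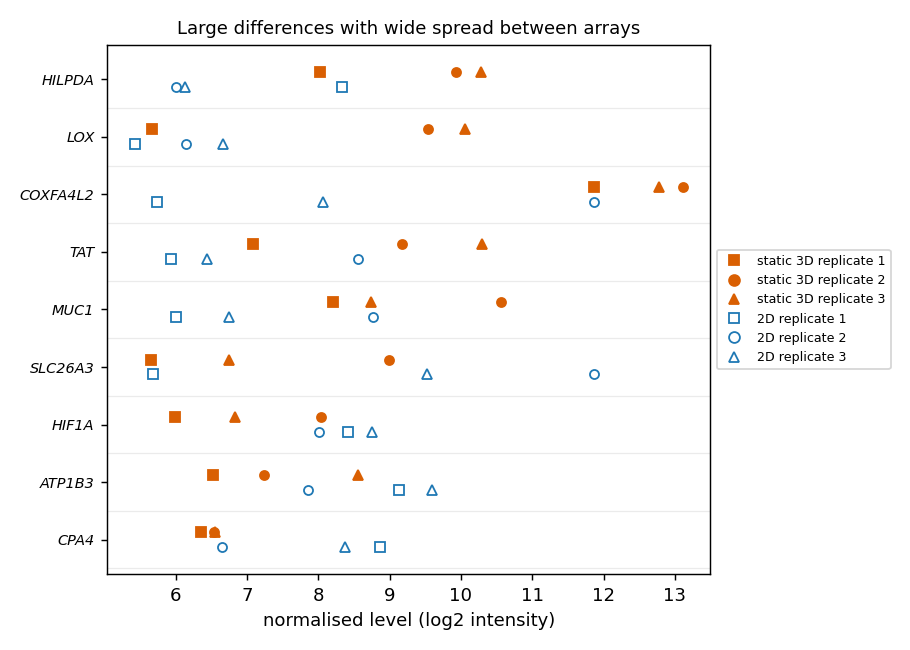
Level of 9 genes on each of the 6 arrays (horizontal axis, log2 intensity), orange filled symbols for static 3D and open blue symbols for 2D, with square, circle and triangle for replicates 1, 2 and 3. In HILPDA the 2D replicate 1 array lies at 8.33, above static 3D replicate 1 at 8.02, while the other 2D arrays lie at 6.01 and 6.13.

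Gene families were described for 45 lists with at least 5 measured genes, most of them outside liver functions, by their median difference beside the median of 0.00 over all genes. In 12 lists the median was 0.1 or more, in 12 it was -0.1 or less and in 21 it lay between. The highest was the list of hepatocyte markers, with a median of 0.78 and 16 of 18 genes higher, 5 of them without overlap (27.8%, against 4.96% of all genes). Its mean per array was 12.63, 12.50 and 13.04 on the static 3D arrays, against 10.95, 12.52 and 12.07 on the 2D arrays. The lowest was 2D replicate 1. The median ran from 0.37 to 1.02 as single arrays were left out (lowest without 2D replicate 1), and was 0.42 without both replicate 1 arrays. The part of the Kupffer cell and dividing cell markers that set 2D replicate 1 apart was not tested. Genes known to be induced by low oxygen, taken outside glycolysis, followed with a median of 0.65 and 33 of 34 higher, 9 without overlap (26.5%). Their mean per array was 9.93, 10.51 and 10.64 on the static 3D arrays, against 9.19, 9.78 and 9.75 on the 2D arrays, all static 3D arrays above all 2D arrays. The median ran from 0.40 to 0.87 as single arrays were left out (lowest without 2D replicate 1), and was 0.62 without both replicate 1 arrays. Endothelial markers had a median of 0.43, with 10 of 10 measured genes higher and 0 without overlap. The mean per array was 6.73, 7.61 and 8.99 on the static 3D arrays, against 6.72, 7.62 and 7.70 on the 2D arrays. Only static 3D replicate 3 thus stood above the 2D arrays in the mean of these 10 genes. Of these, 3 were detected on static 3D replicate 1 and 5 on 2D replicate 1, against 8 to 10 on each other array, and the median ran from -0.12 to 0.93 as single arrays were left out.

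Signalling lists stood higher by less. For regulators that damp MAP kinase signalling (DUSP, SPRY and related genes) the median was 0.34, with 14 of 15 higher, 1 without overlap (6.67%, against 4.96% of all genes). The smallest p were those of DUSP8 and DUSP16 (differences 0.77 and 0.39), and the groups of DUSP8 overlapped. No gene of this list had an unadjusted limma p under 0.05. For growth factors and receptor tyrosine kinases it was 0.26, 29 of 39 higher, led by VEGFA and by MST1, a hepatocyte-made ligand (1.29). For the NF-kappaB pathway it was 0.24, 27 of 35 higher. NFKBIZ was higher by 0.58 without overlap. The inhibitor NFKBIB was lower by 0.82, and its other probe differed by -0.59 with overlap. Circadian clock genes had 0.18, with the clock kinase CSNK1E higher by 0.70 on one probe and by 0.85 on the other, and the repressor NFIL3 by 0.64. The TGF-beta list stood at 0.16, with the latency protein LTBP3 higher by 1.05 and the ligand TGFB2 detected on 2 of the 2D arrays and no static 3D array. Peroxisome biogenesis and chromatin modifiers lay at 0.13 and 0.10. KDM3A, a histone demethylase that is itself a hypoxia gene, was detected on every static 3D array and no 2D array and was at least 1.79-fold higher. Markers of stellate cells stood at 0.16 and ran from -0.38 to 0.70 as single arrays were left out, and markers of B and plasma cells, with 7 measured genes, at 0.31. As single arrays were left out, the medians ran from 0.16 to 0.54 for growth factors and receptor kinases, from 0.20 to 0.30 for clock genes, from 0.01 to 0.28 for the TGF-beta list (lowest without 2D replicate 1), from 0.05 to 0.11 for chromatin modifiers and from 0.14 to 0.34 for B and plasma cell markers. Under median scaling the median of all genes moved to -0.13, and the medians of the chromatin and peroxisome lists turned to -0.04 and -0.07, though both stayed above that of all genes.

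In the lists with the lowest medians, few members stood clear of the 2D range one by one. The TCP1 chaperonin and prefoldin, which fold actin and tubulin, stood lowest at -0.35, with 14 of 15 lower and 3 without overlap (20%, against 5.18% of all genes). The prefoldin subunit PFDN1 lay at 9.67, 9.76 and 9.22 in static 3D, against 10.35, 9.87 and 10.26 in 2D, and VBP1 at 10.21, 10.18 and 9.91 in static 3D, against 10.87, 10.42 and 10.64 in 2D. In both, every static 3D array lay below every 2D array, by differences of -0.61 (SE 0.24) and -0.54 (SE 0.23). The chaperonin list kept its sign in every set without 1 array, from -0.53 to -0.18. Mitochondrial import and dynamics stood at -0.21, with 44 of 56 lower and 5 of them without overlap (8.93%). Among the lower genes were the outer membrane import subunit TOMM5 (-0.67) and the cristae protein CHCHD6 (-0.89). Nuclear pore and transport genes stood at -0.19, 39 of 51 lower, with 3 without overlap (5.88%, near the 5.18% of all genes). The pore protein NUP42 lay at 8.66, 8.53 and 8.78 in static 3D, against 9.25, 9.49 and 9.51 in 2D, and the scaffold member SEH1L was lower by 0.63 on one probe and by 1.39 on the other.

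The actin cytoskeleton list stood at -0.16, with 35 of 50 lower and 8 without overlap (16%). Of all genes 5.18% were lower without overlap, the share to set beside each such count in this paragraph. Radixin (RDX), which ties actin to the membrane, lay at 9.05, 8.87 and 9.15 in static 3D, against 10.03, 9.57 and 9.60 in 2D. The adaptor PDLIM5 was lower by 0.97 on the probe used, while its other probes differed by -0.80 and -0.01 with overlap. Secretory pathway coats and the translocon stood at -0.12, 8 of 56 lower without overlap (14.3%), among them the signal peptidase subunit SPCS1, at 12.32, 12.31 and 12.37 in static 3D, against 12.91, 12.55 and 12.98 in 2D. RNA polymerases and mediator stood at -0.10, 10 of 88 lower without overlap (11.4%), led by POLR3K (-1.14) of RNA polymerase III. Small GTPases stood at -0.11. RRAS2, a Ras-related switch, lay at 10.66, 11.56 and 11.35 in static 3D, against 12.35, 11.998 and 12.20 in 2D, whereas RAB17, of epithelial membrane traffic, was higher by 1.22. The other lists of this kind were initiation factors at -0.13 (EIF3M -0.91, and -0.27 with overlap on its other probe), one-carbon and nucleotide synthesis at -0.12 (AMT 0.85, NME1 -0.66), heme synthesis and breakdown at -0.12 (the transporter ABCB6 0.63) and tRNA synthetases at -0.10 (IARS1 -0.58, YARS2 -0.58). Without 2D replicate 1 the medians of 4 of these lists were 0.02 for the nuclear pore, 0.02 for RNA polymerases and mediator, 0.00 for initiation factors and 0.06 for one-carbon and nucleotide synthesis, and without both replicate 1 arrays they were -0.15, -0.03, -0.11 and -0.08 in the same order. As single arrays were left out, the medians ran from -0.35 to -0.07 for mitochondrial import (nearest 0 without 2D replicate 1), -0.33 to -0.00 for tRNA synthetases (nearest 0 without static 3D replicate 2), -0.17 to -0.01 for heme genes (nearest 0 without static 3D replicate 1), -0.23 to -0.07 for secretory coats, -0.14 to -0.06 for small GTPases and -0.19 to -0.07 for the actin list. Kupffer cell markers stood at -0.15, but their median ran from -1.03 to 0.80 as single arrays were left out.

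Larger families lay near 0. The 258 zinc finger genes named ZNF had a median of 0.09 with 164 of 258 higher, the 234 genes of ubiquitin conjugation 0.01, the 189 solute carriers -0.01, the 117 splicing factors -0.07 and the 81 G protein-coupled receptors 0.08. In the last, KISS1R and the nucleotide receptor P2RY11 (0.89) had the smallest p. The BCL2 and caspase list stood at 0.06, with the survival factor MCL1 higher by 1.10 on its brightest probe and by 0.33, with overlap, on its other.

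**Figure D5:**
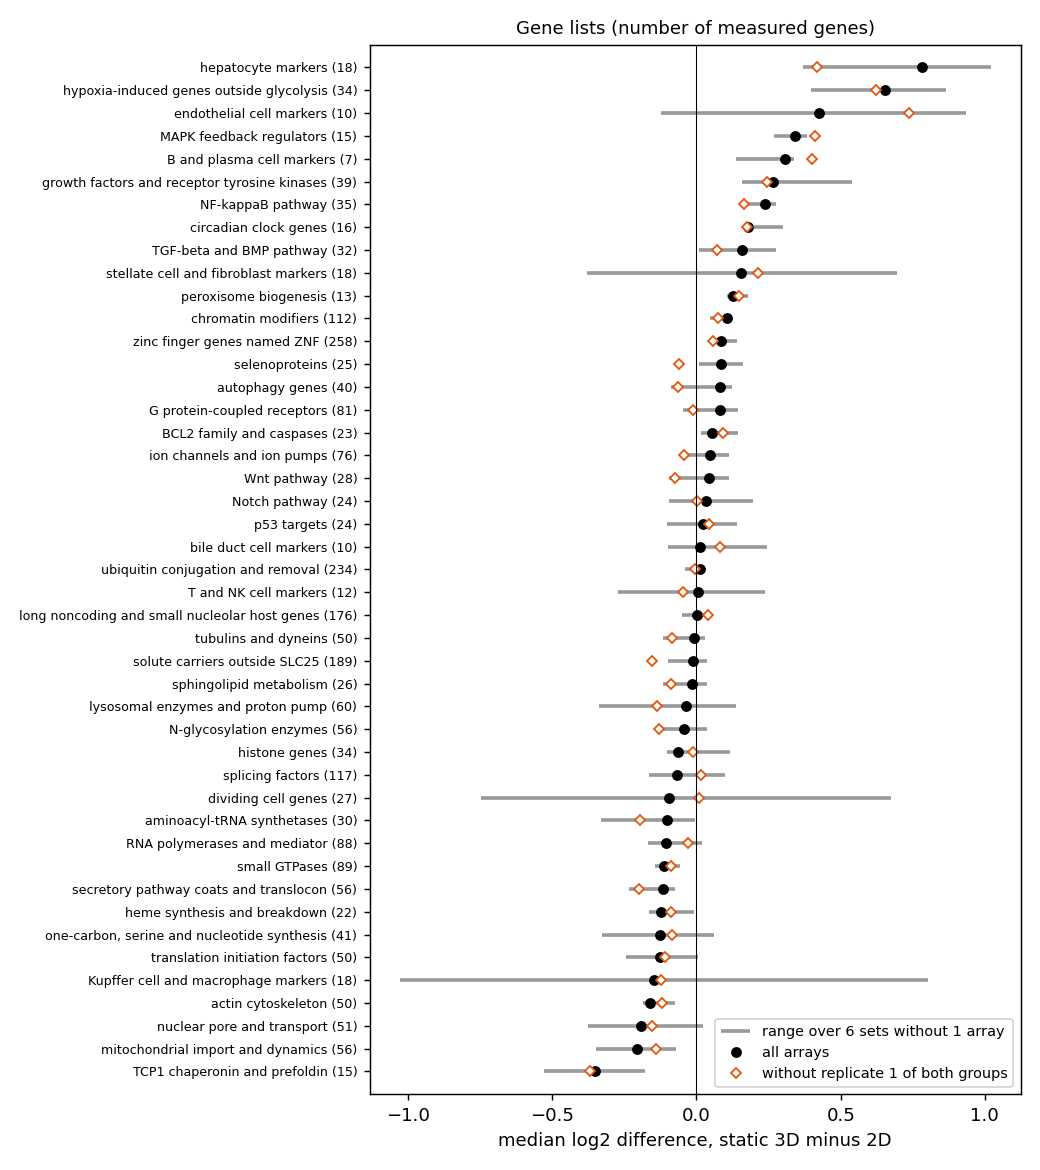
Median log2 difference, static 3D minus 2D, of 45 gene lists (number of measured genes in brackets), with a point for all arrays, a grey line for the range over the 6 sets without 1 array, and a diamond for the set without replicate 1 of both groups. Lists of hepatocyte markers (0.78) and hypoxia-induced genes (0.65) stand highest and the TCP1 chaperonin and prefoldin list lowest (-0.35); the grey lines of Kupffer cell, dividing cell, endothelial and stellate cell lists are the widest.

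Second probes and brightness bear on how far single probes can be read. Of 265 genes without overlap that had several probes, 74 had another probe without overlap on the same side and 193 had all other probes of the same sign. Among the 2241 genes with several probes whose groups overlapped, 1428 had all other probes of the same sign. In 5 equal classes of mean brightness, dimmest first, genes at least 2-fold higher numbered 7, 31, 65, 50 and 66 and those at least 2-fold lower 9, 26, 15, 8 and 6. The 2-fold higher genes thus lay mainly in the brighter classes and the 2-fold lower genes in the dimmer ones, where the background offset of 16 makes a given change look smaller.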

How the data were processed

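The deposited intensity is a mean over the beads of a probe, with a detection p-value beside it in steps of 1/770, for 47323 probes per the file headers. The authors also deposited log2-scale processed values. How they were normalised is not stated in the sources used, so they served as an alternative. RNA was amplified with the TotalPrep kit and labelled with biotin, per the labels' protocols.

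Intensities were background-corrected with limma 3.58.1 in R 4.3.3 (normexp from the detection p-values, offset 16), quantile-normalised over 8 arrays and taken to log2. Probes with detection p under 0.05 on at least 2 arrays were kept (18556). Of these, 14115 carry 1 gene symbol in the platform annotation, giving 11031 genes by the brightest probe. The 17202 probes without a symbol there were not named. A mean per group was fitted over 8 arrays (lmFit, eBayes with an intensity trend, two-sided, 5 residual degrees of freedom), with Benjamini-Hochberg adjustment over 11031 genes at 0.05. The fit was tested on simulated data. The number of arrays limits the precision.

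Named genes were, per direction, the 15 widest gaps, the 6 smallest p-values and the 6 largest differences, up to 2 members of each described list, and ALB and PFKFB4. The 15 widest gaps were taken among genes detected on every array of the higher group. Others are said to be named after their values were seen. Members, lists and rules were chosen with earlier results of these data known. Alternatives were median scaling, no background correction, the deposited processed values, 6 arrays only, 2 other probe filters, the mean of probes, chip as a block, array weights, no intensity trend and the reduced array sets, and, added after seeing the data, undetected arrays set to their faintest detected level (the detection floor). Promoter windows came from RefSeq (GRCh38.p14).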

Additional observations from a re-analysis of the deposited data

How the results depend on the processing

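The 161 genes followed are those named in the text and those the naming rule picks for all lists. For 155 of them the sign of the difference was the same in each of the 18 alternative settings that kept the gene. Exceptions were ALB, ADAM10 of the Notch list, AURKA and KIF11 of the dividing cell list, VWF of the endothelial list and LAMP5. ALB, at -0.0134 over all arrays, stood at 0.0673 with the mean of probes, 0.0119 with array weights and 0.0211 without both replicate 1 arrays, and ran from -0.0373 to 0.0343 with 1 array left out. ADAM10, at -0.43, stood at 0.11 without both replicate 1 arrays and ran from -0.66 to -0.0646 with 1 left out. With 1 left out, AURKA, at -0.63, ran from -1.70 to 0.36 and KIF11, at -0.26, from -0.60 to 0.29, both highest without 2D replicate 1, and VWF, at 0.92, from -0.19 to 1.62, lowest without static 3D replicate 3. LAMP5, at -0.58, stood at 0.0108 with undetected arrays at the detection floor. HILPDA was the only gene to pass the threshold in any setting, 1 gene without both replicate 1 arrays. In the other settings 0 genes passed limma's adjusted threshold. Where a set leaves out arrays, fewer arrays make an absence of overlap more frequent by construction. Other causes were not tested. No paired analysis was possible because the labels carry no replicate numbers or donor and the numbers used here follow accession order only.

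Leaving out 1 array at a time gave 152 to 549 genes at least 2-fold higher and 105 to 263 lower, 893 to 1463 higher and 864 to 1524 lower without overlap, and, at unadjusted p under 0.05, 223 to 562 higher and 141 to 456 lower. Without both replicate 1 arrays there were 144 genes 2-fold higher and 58 lower, and 1731 higher and 2264 lower without overlap. Chip as a block gave 351 and 154 at 2-fold, and 1178 and 1524 without overlap, the same counts as without static 3D replicate 1. Median scaling gave 156 genes 2-fold higher and 137 lower, 42 and 9 of them in every set, 146 higher and 320 lower at unadjusted p under 0.05, and 246 higher and 811 lower without overlap. With undetected arrays at the detection floor, a setting chosen after seeing the data, 192 genes were 2-fold higher and 37 lower, 52 and 1 in every set. Without background correction 93 were 2-fold higher and 6 lower, 27 and 0 in every set; with the deposited processed values 105 and 22, 30 and 0; with probes detected on all 6 arrays 129 and 24, 33 and 1. Array weights gave 483 higher and 530 lower at unadjusted p under 0.05. Without a probe filter these were 512 and 451, and 1028 and 1024 genes did not overlap.

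List medians are given here as differences from the median of all genes. With 1 array left out they ran from -0.19 to -0.0762 for actin cytoskeleton, -0.12 to 0.0294 for sphingolipid metabolism, 0.13 to 0.37 for B and plasma cell markers, 0.0092 to 0.14 for BCL2 family and caspases, -0.0668 to 0.0945 for Wnt pathway, -0.11 to 0.17 for p53 targets, -0.18 to 0.0204 for heme synthesis and breakdown, -0.0905 to 0.12 for autophagy genes, 0.15 to 0.53 for growth factors and receptor tyrosine kinases and -0.11 to 0.02 for tubulins and dyneins. With median scaling, the value was -0.25 for actin cytoskeleton, -0.0997 for sphingolipid metabolism and 0.39 for B and plasma cell markers. With array weights, the value was -0.0792 for Wnt pathway, 0.15 for NF-kappaB pathway, -0.0866 for sphingolipid metabolism and 0.38 for B and plasma cell markers. With chip as a block, the value was -0.0668 for Wnt pathway, 0.17 for p53 targets, 0.0204 for heme synthesis and breakdown and 0.37 for B and plasma cell markers. With probes detected on all 6 arrays, the value was 0.43 for circadian clock genes, 0.17 for zinc finger genes named ZNF and 0.55 for B and plasma cell markers. With no background correction, the value was 0.15 for NF-kappaB pathway and 0.13 for B and plasma cell markers. With the deposited processed values, the value was 0.16 for NF-kappaB pathway. With the mean of probes, the value was -0.053 for BCL2 family and caspases. With undetected arrays at the detection floor, the value was 0.14 for B and plasma cell markers. With both replicate 1 arrays left out, the value was -0.0429 for Wnt pathway, 0.12 for BCL2 family and caspases, -0.0873 for actin cytoskeleton and 0.43 for B and plasma cell markers.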
